A study of Mus musculus with 6 samples.

Results

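Aldehyde dehydrogenases and carbonyl reductases were followed in mouse bone marrow mesenchymal stem cells kept under osteogenic induction with or without melanin concentration hormone (MCH), as the labels call the hypothalamic peptide usually written melanin-concentrating hormone. The set holds 10 genes, Aldh3a1, Aldh3a2, Aldh1a1, Aldh1a3, Aldh1b1, Aldh2, Aldh7a1, Aldh9a1, Cbr1 and Cbr2, matched by name in the deposited table, which has 19353 genes. All 10 had a row. The set was chosen by the large falls of Aldh3a1 and Cbr2 in the MCH counts against the Control counts, so the values of these 2 genes describe the choice and are given without a test. The other 8 were taken as relatives by name, with the results of the series already known.

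The cells were purified from the bone marrow of wild-type mice. Both groups received ascorbic acid at 50 µM, β-glycerophosphate at 10 mM and dexamethasone, a synthetic glucocorticoid, at 100 nM. The MCH group (3 libraries) also received the peptide at 0.5 µM, and Control (3 libraries) did not. The sample titles give day 9 of induction, whereas the design text gives day 8. Age, sex and strain of the mice and any pooling are not stated in the labels. The labels name no animal or culture behind each library, so every p-value is set against a spread among 3 libraries that may be technical. In such bulk samples, fewer cells of one type and less RNA per cell cannot be told apart. The Control columns of the table do not carry the word Control, and every direction below rests on reading them as the group without MCH.

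Aldehyde dehydrogenases oxidise aldehydes to carboxylic acids with NAD+ or NADP+ as the acceptor. Their substrates include retinal, acetaldehyde, aldehydes from lipid peroxidation and intermediates of amino acid breakdown, and the isozymes differ in substrate and in cell compartment. Carbonyl reductases run the opposite kind of chemistry with NADPH, reducing aldehydes and ketones to alcohols, and they also reduce quinones. High aldehyde dehydrogenase activity is widely used to enrich stem and progenitor cells, marrow cells included.

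The libraries held 16521980 to 18803949 counts each. Of the stromal markers, Col1a1 had 64369 to 95948 counts per library and Pdgfra 1805 to 3567, whereas the pan-leukocyte gene Ptprc had 0 to 2. Of the adipocyte markers Adipoq, Plin1 and Cfd had at most 3 counts and Fabp4 735 to 1215. Of the osteoblast markers Sp7 and Bglap had 3 to 4 and 0 to 3 counts, Alpl 243 to 712, Runx2 783 to 1111 and Spp1 8629 to 19727. On the first principal component MCH replicate 1 was at 10.9, between Control (-25.5 to -18.9) and the other MCH libraries (24.8 and 32.3). MCH replicate 3 held the most counts of the macrophage gene Adgre1, 50 against 0 to 11 elsewhere. Summed over 10 stromal markers, the level was 12316.1 to 13163.5 CPM, the counts scaled to a common library size, in Control. With MCH it was 8508.0 to 9237.0 CPM, and 6 of the 10 were called lower. Calls here follow the rule given below, by which 5.4% of all genes tested were lower and 3.64% higher. Over 5 osteoblast markers the level was 1127.6 to 1164.8 CPM in Control and 551.5 to 574.1 CPM with MCH, with 2 of 3 tested lower (Alpl and Spp1). Over 4 adipocyte markers it was 63.7 to 71.6 and 43.1 to 58.6 CPM, with 0 of 1 tested called (Fabp4). These 3 sums were lower in every MCH library, but each rested mostly on few genes. For the stromal sum these were Col1a1 (mean 5172 CPM in Control, 3813 with MCH) and Col1a2 (5912 and 4119). For the others they were Spp1 (1050 and 502) and Fabp4 (66.7 and 52.4). The stromal markers Thy1, Eng, Cxcl12 and Lepr were not called. The sum over 9 leukocyte and macrophage markers overlapped, at 164.9 to 170.0 and 137.3 to 172.2 CPM, with 1 of 4 tested lower (Cd14). Most of this sum was Cd14, with a mean of 127 CPM in Control and 94.6 CPM with MCH. The other 3 tested, Cd68 (log2 change 0.47), Csf1r (0.50) and Lyz2 (0.39), were above 0 and not called. The sum over 3 endothelial markers also overlapped, at 3.2 to 3.9 and 2.4 to 4.8 CPM, with 0 of 2 tested called. The part of these marker levels in the falls below was not tested.

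Of the 9 members that could be tested, 3 were lower with MCH (Aldh3a1, Cbr2 and Aldh2) and 0 were higher (edgeR quasi-likelihood test over all genes, adjusted p under 0.05). Over all 13662 genes tested, 5.4% were lower and 3.64% higher by the same rule, 9.04% in either direction. Aldh3a1 and Cbr2 were also at least 2-fold lower, as were 1.05% of all genes tested. Because these 2 chose the set, the count is a description only. Of the other 7 members tested, 1 was lower (Aldh2) and 0 were higher. No member was higher at an unadjusted p under 0.05 either, where 12.9% of all genes were higher and 13.8% lower. DESeq2 and limma-voom, run on the same libraries, also found 3 members lower and 0 higher, the 2 choosing genes included. DESeq2 called 6.81% of all genes lower and 6.17% higher, and limma-voom 4.93% and 3.16%. The median log2 fold change of the 9 was -0.02, beside 0.00 over all genes tested, and without Aldh3a1 and Cbr2 the other 7 had a median of 0.00. The CPM ranges of the groups did not overlap for 4 of the 9, beside 32.8% of all genes tested. Aldh3a1 and Cbr2 were among the 4, and of the other 7 members 2 did not overlap. Aldh1a3 was too low to test.

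**Figure D1:**
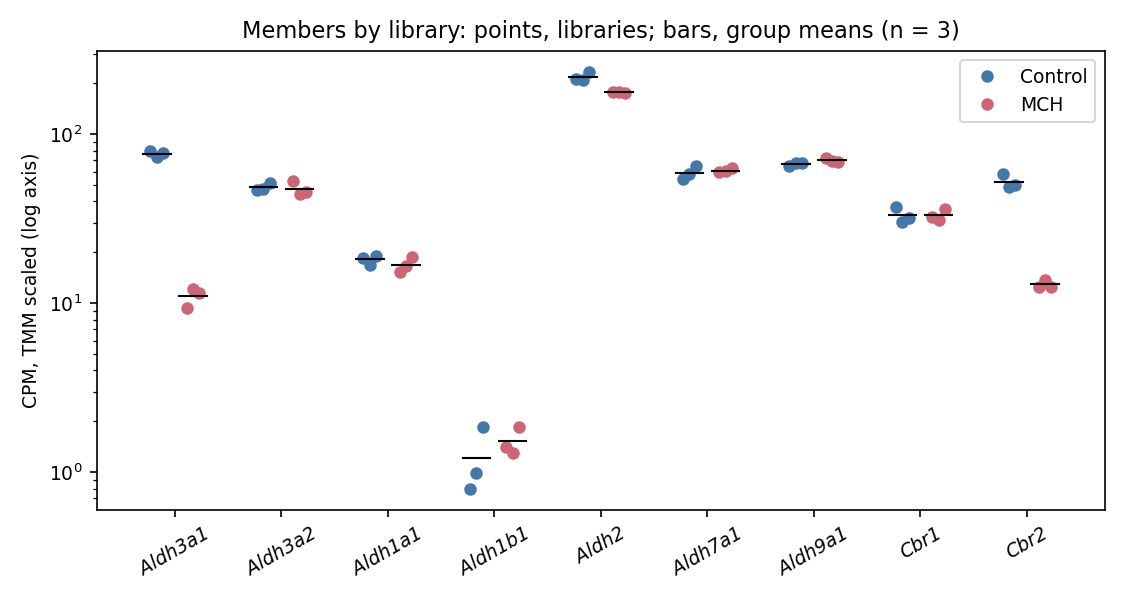
CPM of the 9 tested members in each library, on a log axis, with 3 points per group and a bar at the group mean. The MCH points of Aldh3a1 (9.39 to 12.1 CPM) and Cbr2 (12.5 to 13.7 CPM) lie far below their Control points, and those of Aldh2 lie just below.

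Aldh3a1 encodes a cytosolic aldehyde dehydrogenase that acts on medium-chain and aromatic aldehydes and is best known as an abundant protein of the cornea. Its level was 79.4, 73.1 and 77.0 CPM in the Control libraries and 9.39, 12.1 and 11.5 CPM in the MCH libraries. The lowest Control library thus stood far above the highest MCH library. The difference was -2.80 ± 0.11 on the log2 scale (SE), 6.95-fold lower with MCH, and rested on 1292 to 1397 counts per Control library and 160 to 215 per MCH library. Ranked by log2 fold change over the 13662 genes tested, Aldh3a1 was number 8 from the lowest. Without MCH replicate 1, the MCH library nearest to Control on the first principal component, the log2 difference was -2.69. That library held the lowest Aldh3a1 level of the 3. The gene lies at chr11:61207537-61218421 on the plus strand (GRCm38).

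Cbr2, the carbonyl reductase known as a mitochondrial enzyme abundant in mouse lung, showed the other large difference. It stood at 57.8, 48.7 and 50.1 CPM in Control and at 12.6, 13.7 and 12.5 CPM with MCH, again with a wide gap between the groups. The log2 difference was -2.01 ± 0.10 (SE), 4.03-fold lower, and -1.99 without MCH replicate 1. Among all genes tested Cbr2 was number 28 from the lowest. It lies at chr11:120729489-120732114 on the minus strand, far from Aldh3a1 on the same chromosome. Of the 50-base stretches of its transcripts in the GENCODE M21 annotation, 12.1% also occur in transcripts of Gm11771, so reads from these could have been given to either gene. Gm11771 had 0 to 8 counts per library, against at least 214 for Cbr2.

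The authors' deposited table marks Aldh3a1 and Cbr2 as UP, which there stands for a higher mean in the Control columns. It leaves the other 8 members unmarked, with q-values from 0.308 to 1.

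To show the sequence before the start of a gene that fell beside one that did not pass the test, the windows of Cbr2 and Aldh9a1 are given, 157 bases each in the direction of transcription, from the RefSeq table (GRCm38.p6). The Aldh9a1 stretch ends at the base before the RefSeq start site. The Cbr2 stretch ends before the gene as deposited, whose locus begins further upstream, and leaves out the 93 bases next to the RefSeq start site. The Cbr2 stretch is chr11:120732115-120732271 on the minus strand and that of Aldh9a1 is chr1:167349834-167349990 on the plus strand. Capitals mark CG dinucleotides. As the stretches lie at different distances from the start site, their CG counts are not compared, and the full windows are described next.
Cbr2: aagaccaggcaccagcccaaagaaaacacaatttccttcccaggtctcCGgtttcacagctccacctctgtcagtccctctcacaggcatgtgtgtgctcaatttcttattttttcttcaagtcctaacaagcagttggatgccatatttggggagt
Aldh9a1: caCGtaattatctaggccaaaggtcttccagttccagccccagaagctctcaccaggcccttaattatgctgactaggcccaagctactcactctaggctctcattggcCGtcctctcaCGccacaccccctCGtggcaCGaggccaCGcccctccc

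Windows of 250 bases before the RefSeq start site were found for 6 of the 10 members, 7 windows in all. Aldh3a1, Aldh1a3, Aldh2 and Aldh7a1 had none. The Cbr2 window held 3 CG dinucleotides, and 37.8% of all 32841 windows held as few or fewer, beside a median of 6. Aldh9a1 held 8, Cbr1 6, Aldh1b1 4 and Aldh3a2 18, and the pair of Aldh1a1 windows 3 and 1. Searched on both strands for 7 motifs, the Cbr2 window had 0 matches. The motifs were GCGTG (core of the xenobiotic response element), TGACNNNGC (core of the antioxidant response element), the glucocorticoid response element, the retinoic acid response element, TATAAA (the TATA box), GGGCGG (the GC box) and CCAAT (the CAAT box). The first of these, GCGTG, occurred in Aldh9a1 and in Cbr1 (2 matches each) and in Aldh3a2 (1 match), and in 28.2% of all windows. TGACNNNGC was found in Aldh9a1 (1 match) and in 10.2% of all windows. The glucocorticoid and retinoic acid motifs were in no member window and in 0.387% and 0.0639% of all windows. TATAAA was also in no member window, against 12.4% of all. GGGCGG matched in Aldh1b1 and Aldh3a2 (32.7% of all windows), and CCAAT in Aldh3a2, Aldh9a1 and 1 Aldh1a1 window (33.9% of all). Matches of different motifs may overlap, and a match is a string of letters, not a bound site.

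Aldh3a2, the fatty aldehyde dehydrogenase of the endoplasmic reticulum that is mutated in Sjögren-Larsson syndrome, is the neighbour of Aldh3a1. It lies at chr11:61223417-61267464 on the minus strand, with a gap of 5 kb between the tail ends of the 2 genes. Its level was 46.7, 47.4 and 51.1 CPM in Control and 52.7, 44.4 and 45.7 CPM with MCH, and the groups overlapped. The log2 difference was -0.02 ± 0.09 (SE, adjusted p = 0.890), with a 95% interval of the fold from 0.852 to 1.13. No 50-base stretch was shared between transcripts of Aldh3a1 or Aldh3a2 and any other gene of the annotation (0% in both). Usp22, the other tested gene within 100 kb of Aldh3a1, differed by -0.16 ± 0.06 (adjusted p = 0.142). Around the members as a whole, 32 other genes within 100 kb were tested. Of these, 1 was lower and 0 higher, beside 5.4% and 3.64% of all genes tested. The lower gene was Fasn, the fatty acid synthase gene, 73.7 kb from Cbr2 and named after its values were seen. Its log2 change was -0.62 ± 0.12 (adjusted p = 0.0241). The call was lost without Control replicate 1 (adjusted p = 0.0578), MCH replicate 2 (0.0886) or MCH replicate 3 (0.0977). Nearer to Cbr2, at 2.21 kb, Dcxr, which encodes the carbonyl reductase of xylulose and dicarbonyls, differed by -0.41 ± 0.22 and did not pass (adjusted p = 0.293). Its MCH libraries held 175, 223 and 317 counts and its Control libraries 338, 296 and 317.

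**Figure D2:**
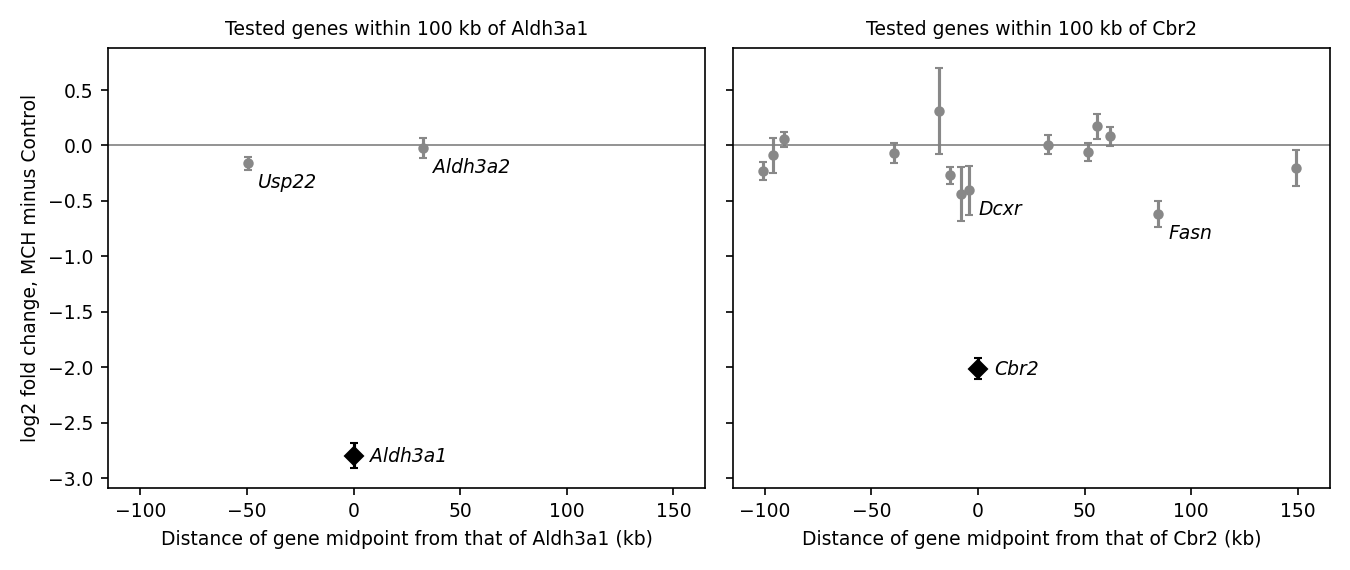
Log2 fold change (MCH minus Control, bars show SE) of tested genes within 100 kb of Aldh3a1 (left) and Cbr2 (right), against the distance between gene midpoints in kb, with the member as a diamond. Aldh3a1 (-2.80) and Cbr2 (-2.01) stand below all their tested neighbours, of which Fasn at -0.62 is the lowest.

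Aldh2 is the mitochondrial enzyme that clears acetaldehyde and aldehydes from lipid peroxidation. Its level was 212, 210 and 235 CPM in Control (219 ± 13.8 SD, n = 3) and 179, 179 and 176 CPM with MCH (178 ± 1.34). The groups did not overlap, and Control replicate 3 stood above the other Control libraries. Aldh2 fell by 0.30 ± 0.06 on the log2 scale (SE; edgeR adjusted p = 0.0269). The call was lost without Control replicate 2 (adjusted p = 0.0592), Control replicate 3 (0.0856), MCH replicate 2 (0.0833) or MCH replicate 3 (0.118). In the authors' deposited table its q-value was 0.308. Gm42879 overlaps Aldh2 by 130 bases on the opposite strand, and 1.56% of the 50-base stretches of Aldh2 occur in it, but it had only 1 to 9 counts per library.

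Aldh1b1, another mitochondrial isozyme, was at the lower edge of detection with 13 to 32 counts per library. It had 0.799, 0.994 and 1.86 CPM in Control and 1.41, 1.30 and 1.86 CPM with MCH. Its log2 difference was 0.32 ± 0.36 (adjusted p = 0.618). The 95% interval ran from 0.699-fold to 2.23-fold, so changes within that range were not excluded. Aldh7a1, or antiquitin, works in lysine breakdown and stood at 54.3, 58.1 and 64.8 CPM in Control and 59.6, 60.3 and 62.9 CPM with MCH. All MCH values fell inside the Control range (log2 difference 0.04 ± 0.08, adjusted p = 0.775, 95% interval of the fold from 0.903 to 1.18). Aldh7a1 overlaps Phax on the opposite strand over 10509 bases, and 6.35% of its 50-base stretches are shared with other transcripts. The strand setting of the counting is not stated, so reads of the overlap cannot be told apart. Phax itself differed by 0.11 ± 0.09 (adjusted p = 0.453).

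The cytosolic Aldh9a1 makes the carnitine precursor butyrobetaine from an aldehyde. It had 64.5, 67.4 and 67.6 CPM in Control and 72.1, 69.9 and 68.2 CPM with MCH. Although the groups did not overlap, the difference was 0.07 ± 0.06 on the log2 scale and did not pass (adjusted p = 0.496, 95% interval of the fold from 0.952 to 1.17).

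The retinal-oxidising isozymes make retinoic acid, a regulator of skeletal patterning and differentiation. Aldh1a1 had 18.6, 16.95 and 18.9 CPM in Control and 15.4, 16.6 and 18.8 CPM with MCH, with overlapping groups. The log2 difference was -0.10 ± 0.11 (adjusted p = 0.597, 95% interval of the fold from 0.782 to 1.11). Aldh1a7, its close relative 49.5 kb away, differed by -0.11 ± 0.15 (adjusted p = 0.707), and 3.06% of the 50-base stretches of Aldh1a1 occur in it. Aldh1a3 was close to absent from these libraries: it had 1, 0 and 1 counts in Control and 0 in each MCH library. A count of 0 allows up to 3 counts per library (counting error only), so both groups were at or under the floor and no fold is given. Aldh1a2 was not analysed here.

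Cbr1 is the cytosolic carbonyl reductase that acts on quinones and prostaglandins. It stood at 37.1, 30.4 and 32.0 CPM in Control and 32.3, 31.0 and 36.2 CPM with MCH. The groups overlapped and the log2 difference was 0.00 ± 0.10 (adjusted p = 0.998), with a 95% interval of the fold from 0.847 to 1.18. Its relative Cbr3, 72.7 kb downstream, had 168 to 205 counts per library and a difference of 0.06 ± 0.12 (adjusted p = 0.810). A further relative, Gm5678, holds 1.81% of the 50-base stretches of Cbr1 and was not analysed here.

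**Figure D3:**
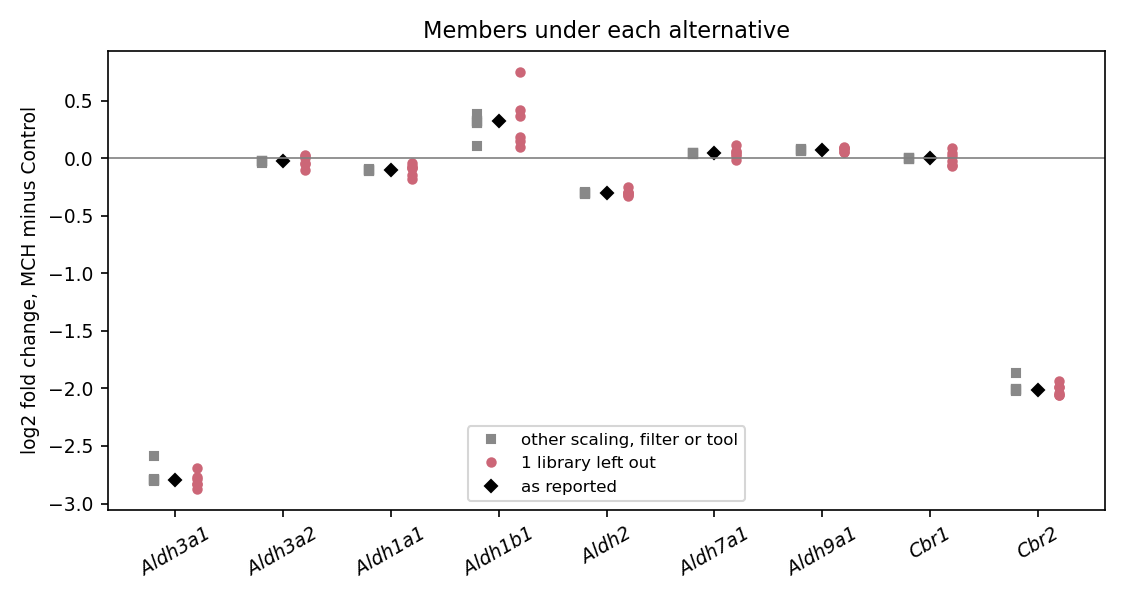
Log2 fold change (MCH minus Control) of the 9 tested members as reported (diamonds), with other scalings, filters or tools (squares) and with 1 library left out (circles). Aldh3a1 lies between -2.87 and -2.59 and Cbr2 between -2.06 and -1.87, whereas Aldh1b1, with the lowest counts, spreads from 0.10 to 0.75.

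Levels of different genes were compared per length, in the authors' FPKM (fragments scaled to gene length and library size). Among the members the highest in Control was Aldh3a1 with 34.1 ± 0.927 FPKM (SD, n = 3), whose range overlapped that of Aldh2 (32.5 ± 2.18). Then came Cbr2 (26.9 ± 2.09) and Cbr1 (26.8 ± 2.37), also overlapping, and Aldh9a1 (15.7 ± 0.659), which was separate from both sides. Aldh1a1 (8.87 ± 0.448), Aldh7a1 (7.73 ± 0.769) and Aldh3a2 (7.21 ± 0.412) each overlapped the next. Aldh1b1 (0.446 ± 0.209) and Aldh1a3 (at most 0.0111 in any library) were far lower. With MCH the order began with Cbr1 (26.7 ± 2.22) and Aldh2 (26.2 ± 0.593), which overlapped, and Aldh9a1 (16.4 ± 0.732). Cbr2 (6.62 ± 0.269) took rank 7, overlapping Aldh3a2 (7.05 ± 0.801), and Aldh3a1 (4.86 ± 0.545) took rank 8, apart from its neighbours on both sides.

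The make-up of the mRNA of the 8 Aldh members followed from these levels. Other aldehyde dehydrogenases were not in this sum, and the shares below depend on that choice. Among them, Aldh18a1 had 41.2 ± 1.73 FPKM in Control (SD, n = 3) and 42.4 ± 2.67 FPKM with MCH, above Aldh3a1 in both groups. Summed over the 8 Aldh members, the level was 104, 104 and 112 FPKM in Control and 72.3, 69.8 and 71.3 FPKM with MCH, so the mean with MCH was 66.8% of that in Control. Without Aldh3a1, the other 7 summed to 68.9, 71.3 and 77.1 FPKM in Control and 68.1, 64.5 and 66.2 FPKM with MCH, or 91.5% of Control. Aldh3a1 made up 32.0 ± 1.36% of the sum in Control (SD, n = 3) and 6.84 ± 0.876% with MCH. Aldh2 held 30.5 ± 0.780% and 36.8 ± 0.526%, and Aldh9a1 14.7 ± 0.623% and 23.1 ± 0.785%. A share must rise where another falls, so these are a description of the mixture. Counted in CPM, which weights long transcripts more, the share of Aldh3a1 was 15.7% in Control and 2.85% with MCH.

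**Figure D4:**
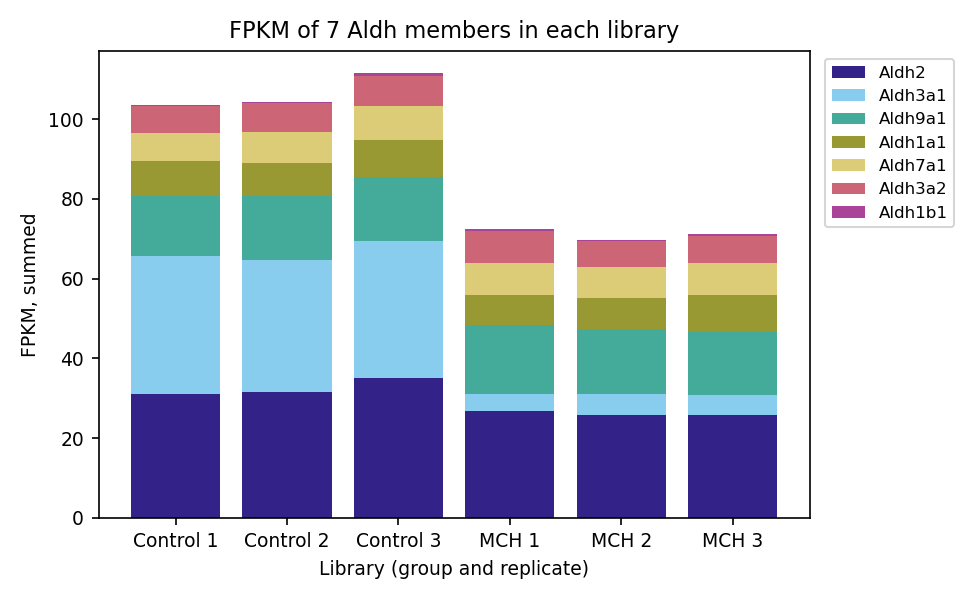
Summed FPKM of 7 Aldh members in each of the 6 libraries, 1 bar per library and 1 colour per gene, with Aldh1a3 left out as nearly 0. The bars reach 104 to 112 FPKM in Control and 69.8 to 72.3 FPKM with MCH, and the segment that shrinks most is Aldh3a1.

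Among the other aldehyde dehydrogenases, 13 genes were listed, 11 had a row and 8 were tested. Aldh3b1, a membrane-bound relative of Aldh3a1, fell and Aldh1l2, which oxidises formyl-tetrahydrofolate in mitochondria, rose, so 1 was lower and 1 higher (5.4% and 3.64% of all genes; the same counts at an unadjusted p under 0.05 and by DESeq2, and 1 and 0 by limma-voom). Aldh3b1 stood at 13.6, 11.9 and 11.7 CPM in Control and 7.57, 8.24 and 9.34 CPM with MCH, without overlap (log2 change -0.57 ± 0.13, adjusted p = 0.0380). Aldh1l2 stood at 171, 193 and 184 CPM and 239, 211 and 219 CPM (0.29 ± 0.07, adjusted p = 0.0487). Both calls were lost in every fit with 1 library left out (adjusted p from 0.0657 to 0.110 for Aldh3b1 and from 0.0719 to 0.137 for Aldh1l2), and that of Aldh1l2 also with upper-quartile scaling, a non-robust fit and limma. The tested genes with the next smallest p, Aldh6a1 of valine breakdown and Aldh4a1 of proline breakdown, differed by -0.31 ± 0.15 (adjusted p = 0.234) and -0.44 ± 0.36 (adjusted p = 0.476). The median of the 8 was -0.05.

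**Figure D5:**
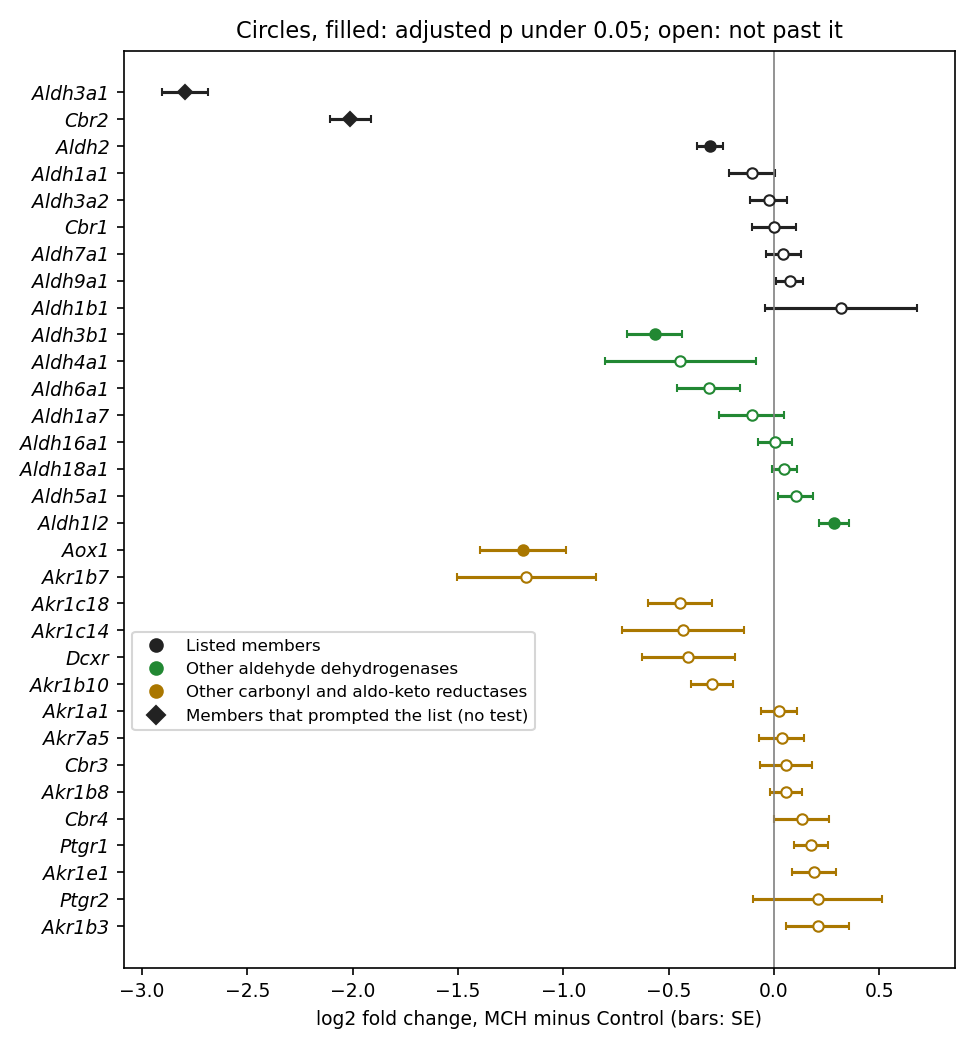
Log2 fold change (MCH minus Control, bars show SE) of the tested members and of the other tested aldehyde dehydrogenases and carbonyl or aldo-keto reductases. Filled circles passed adjusted p under 0.05, open ones did not, and the diamonds are Aldh3a1 and Cbr2, which prompted the list. Most genes lie near 0, and after the diamonds the lowest are Aox1 (-1.19) and Akr1b7 (-1.18).

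Of 23 other carbonyl and aldo-keto reductases and related enzymes, 18 had a row and 15 were tested, of which 1 was lower and 0 higher, beside 5.4% and 3.64% of all genes. At an unadjusted p under 0.05, 4 were lower and 0 higher, beside 13.8% and 12.9%, and DESeq2 and limma-voom also called 1 lower and 0 higher. This was Aox1, the aldehyde oxidase, which turns aldehydes into acids without NAD. It stood at 9.40, 11.6 and 13.7 CPM in Control and 5.81, 3.89 and 5.51 CPM with MCH (log2 change -1.19 ± 0.20, adjusted p = 0.0146). The call was lost without Control replicate 2 (adjusted p = 0.0560), Control replicate 3 (0.0635) or MCH replicate 3 (0.0534). The aldose reductase relative Akr1b7 had only 9 to 29 counts per library and did not pass (-1.18 ± 0.33, adjusted p = 0.0653). It passed with limma on log2(FPKM + 1) and on log2(FPKM + 0.1) (adjusted p = 0.0349 and 0.0336). Akr1b10 (-0.29 ± 0.10, adjusted p = 0.106) and Akr1c18 (-0.45 ± 0.15, adjusted p = 0.109) did not pass either. The median of the 15 was 0.04.

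Alcohol dehydrogenases feed aldehydes to this family. None of the 4 tested (Adh1, Adh5, Adhfe1 and Sord) was called by edgeR, and the gene called in their list was Esd, which is no alcohol dehydrogenase. Of the 5 tested genes of the list, Esd included, 1 was thus higher and 0 lower, beside 3.64% and 5.4% of all genes. At an unadjusted p under 0.05, 2 were higher and 1 lower, beside 12.9% and 13.8%, and DESeq2 called 1 and 1 and limma-voom 1 and 0. Esd, the S-formylglutathione hydrolase that completes formaldehyde clearance, rose from 282, 264 and 274 CPM to 331, 369 and 372 CPM (0.39 ± 0.07, adjusted p = 0.0146). Its call was lost without Control replicate 2 or 3 or MCH replicate 2 or 3 (highest adjusted p = 0.0759). Adh5, the formaldehyde dehydrogenase one step before it, differed by 0.19 ± 0.06 (adjusted p = 0.110), Adh1 by -0.78 ± 0.37 (adjusted p = 0.221) and the sorbitol dehydrogenase Sord by -0.40 ± 0.10 (adjusted p = 0.0546). Sord passed with DESeq2 (adjusted p = 0.0317), with no filter on low counts (0.0492) and without MCH replicate 1 (0.0350).

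In the retinoid pathway, 23 genes were listed and 19 tested, with 1 higher and 2 lower, beside 3.64% and 5.4% of all genes, and a median of -0.04. At an unadjusted p under 0.05, 2 were higher and 3 lower, beside 12.9% and 13.8%, and DESeq2 and limma-voom called 1 and 2. The fatty acid binding protein gene Fabp5, whose product can carry retinoic acid, rose from 101, 95.9 and 88.2 CPM to 146, 177 and 169 CPM (0.79 ± 0.09, adjusted p = 0.00312), a call kept in all 6 fits with 1 library left out. The receptor gene Rarg fell from 180, 175 and 189 CPM to 142, 144 and 147 CPM (-0.33 ± 0.05, adjusted p = 0.0131). Its partner gene Rxra fell from 75.3, 68.1 and 77.8 CPM to 56.9, 54.6 and 59.5 CPM (-0.37 ± 0.08, adjusted p = 0.0275). Both calls were lost without Control replicate 3, MCH replicate 2 or MCH replicate 3, and that of Rxra also without Control replicate 1 (highest adjusted p = 0.0633 for Rarg and 0.101 for Rxra). The retinol receptor gene Stra6, with 6 to 34 counts per library, differed by -1.29 ± 0.41 (adjusted p = 0.0891).

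Aldh3a1 is a textbook target of the aryl hydrocarbon receptor in liver, so that receptor and its targets were listed too. Of 6 tested, 1 was lower and 0 higher, beside 5.4% and 3.64% of all genes. With the unadjusted p under 0.05 these were 3 and 1, beside 13.8% and 12.9%, and by DESeq2 and limma-voom 1 and 0. The receptor gene Ahr itself fell from 22.1, 22.4 and 19.9 CPM to 14.0, 12.0 and 12.7 CPM (-0.74 ± 0.10, adjusted p = 0.00699). This call was kept in all 6 fits with 1 library left out. The target Cyp1a1 had 38 to 101 counts per library and did not pass (-0.67 ± 0.27, adjusted p = 0.162), nor did Arnt, which encodes the partner of the receptor, (-0.47 ± 0.19, adjusted p = 0.177) or the target Tiparp (0.18 ± 0.06, adjusted p = 0.0968). Arnt passed without MCH replicate 1 (adjusted p = 0.0314). The remaining tested targets, Cyp1b1 (0.10 ± 0.06, adjusted p = 0.359) and Nqo1 (0.10 ± 0.10, adjusted p = 0.552), did not pass. Any link between the level of Ahr and that of Aldh3a1 was not tested.

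No gene of the remaining lists passed in either direction, beside 5.4% of all genes lower and 3.64% higher. At an unadjusted p under 0.05 the shares of all genes were 13.8% lower and 12.9% higher. Lists as short as these cannot tell 0 from such shares. Of the enzymes that clear lipid peroxides and 4-hydroxynonenal, 6 were tested (0 at an unadjusted p under 0.05, 0 by DESeq2 and limma-voom), among them Gpx4 (0.18 ± 0.10, adjusted p = 0.285), Gsta4 (-0.43 ± 0.25, adjusted p = 0.311), Gstm1 (-0.17 ± 0.17, adjusted p = 0.577) and Gstp1 (0.07 ± 0.10, adjusted p = 0.669). Of the lysine, choline and carnitine steps around Aldh7a1 and Aldh9a1, 5 were tested with the same 0 counts. Among these were the sarcosine dehydrogenase Sardh (-0.19 ± 0.08, adjusted p = 0.195), Tmlhe, the first enzyme of carnitine synthesis (-0.15 ± 0.09, adjusted p = 0.313), Gcdh of lysine breakdown (0.13 ± 0.08, adjusted p = 0.330) and the carnitine transporter Slc22a5 (-0.09 ± 0.13, adjusted p = 0.717).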

How the data were processed

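Polyadenylated RNA of 6 libraries was sequenced, 3 per group. The authors deposited 1 table per gene, with read counts as whole numbers and FPKM, per the file headers, on GRCm38 (mm10), per the submitters' processing notes. It also holds the authors' deposited q-values. For the aligner, counter, annotation, strand setting and authors' test, nothing is stated in the labels or headers. The deposited FPKM implied 1 fixed length per member.

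Counts were tested with edgeR 4.0.16 (R 4.3.3): TMM scaling, filterByExpr (minimum count 10, minimum total 15), robust quasi-likelihood fit on group alone, two-sided, Benjamini-Hochberg over the 13662 genes kept of 19353. SE was taken as the size of the unshrunken coefficient over sqrt(F). CPM values are TMM scaled. Alternatives were other scalings, filters and fits, DESeq2 1.42.0, limma 3.58.1, a replicate block, and fits without each library in turn.

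The 10 members and all lists were chosen with earlier results of these data known. All members are named, with the called genes of each pathway list (not of the cell type markers) and up to 4 of its tested genes of smallest p. Aldh18a1, Cyp1b1 and Nqo1 are named besides, with their values known, and were not followed through the alternatives. The counts of CG dinucleotides and of shared 50-base stretches were added after the values were seen. No pair of libraries within a group was the same within sampling noise (chi-square over its degrees of freedom, 15.8 to 26.9). In simulated counts for this comparison (13517 genes), changes were set in a small part of the genes, all with a mean of at least 50 counts. Of these changes, 32% were recovered at 1.5-fold, 78% at 2-fold and 98% at 4-fold. Recovery was not simulated for genes of lower counts, such as Aldh1b1, Akr1b7 and Stra6.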

Additional observations from a re-analysis of the deposited data

How the results depend on the processing

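Aldh3a1 and Cbr2, chosen for their falls in these same counts, kept their direction in all 16 alternatives. Aldh2 kept its call in 11 of 16. The members lower numbered 3, or 2 where Aldh2 lost its call, and 0 were higher in every alternative. The 6 tested members that did not pass did not pass in any alternative. No gene followed through the alternatives was past the threshold in opposite directions. Over all genes, 497 were higher and 738 lower. With 1 library left out the counts ran from 65 to 722 and from 256 to 867, the fewest without MCH replicate 3 and the most without MCH replicate 1. The fall was over 1.5 times without Control replicate 2 or 3 or MCH replicate 2 or 3, and for genes higher also without Control replicate 1. DESeq2 gave 800 higher and 883 lower. With the replicate number as a block there were 28 higher and 151 lower, and Aldh2, Aldh3b1, Aldh1l2, Aox1, Esd, Rarg, Rxra, Fasn and Ahr lost their calls (adjusted p from 0.0592 for Ahr to 0.203 for Aldh1l2). Deviations of same-numbered libraries correlated at -0.161, -0.0386 and -0.0138, and those of unlike-numbered libraries at -0.0778 to 0.11. These values show no sign of pairing by number. They cannot settle it, with 3 libraries per group and no animal or culture named in the labels. What the calls lost under the block mean was not tested. In CPM the share of Aldh3a1 was 15.7% and 2.85% in place of 32.0% and 6.84%, and that of Aldh2 44.8% and 46.1% in place of 30.5% and 36.8% (Control and MCH). The causes of these shifts were not tested beyond the weighting by length that CPM brings. With 1 library left out, the share of Aldh3a1 ran from 31.2% to 32.5% in Control and from 6.47% to 7.32% with MCH, and that of Aldh2 from 30% to 30.8% and from 36.7% to 37.1%. Depth limits what can be said of Aldh1b1, Aldh1a3, Akr1b7 and Stra6.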
